A study of Rattus norvegicus with 19 samples.

Results

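The genes that make nitric oxide, set its cofactor, substrate and inhibitor levels, and carry its cGMP signal were followed across 19 RNA-seq libraries of rat left ventricle. The 9 members were picked by symbol: the synthases Nos1, Nos2 and Nos3, the synthase-binding protein Nosip, the methylarginine hydrolases Ddah1 and Ddah2, the cofactor enzyme Gch1, the arginase Arg2 and the cGMP-dependent kinase Prkg1. They are 9 of 17455 genes in the count files, and all 9 were among the 12388 genes with enough counts to be tested. Sprague-Dawley rats aged 24 weeks at the start, all labelled male with strain given as Wildtype, were either controls without L-NAME, collected at week 5 (control 5w, n = 3) or week 9 (control 9w, n = 3), or disease rats. Per the paper the controls ate normal chow, so disease rats and controls differ in diet as well as in L-NAME. Disease rats had received L-NAME at 0.5 g/L in drinking water and a high-fat diet with 60% of its energy from fat over 5 weeks, which is the HFpEF group at week 5 (n = 3). Other disease rats were gavaged over the next 4 weeks with PBS (untreated, n = 3), with empagliflozin at 0.35 g/kg per day (EMPA, n = 2), with pirfenidone at 0.3 g/kg per day (PFD, n = 2), or with both (EMPA + PFD, n = 3). The labels and methods give L-NAME and the diet over 5 weeks, while the discussion of the work speaks of induction up to week 9, so exposure in the last 4 weeks is not settled by the sources used here.

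Nitric oxide synthases turn arginine into nitric oxide and citrulline and need tetrahydrobiopterin, whose synthesis Gch1 starts. Nos3 is the endothelial enzyme, Nos1 the neuronal one that cardiomyocytes also hold, and Nos2 the one that inflammation induces. Methylated arginines such as ADMA block the synthases much as the drug L-NAME does, and Ddah1 breaks ADMA down. Nitric oxide activates soluble guanylate cyclase, and the cGMP formed activates Prkg1, which relaxes smooth muscle and dampens growth signals in cardiomyocytes. HFpEF is heart failure in which the ejected fraction is preserved. Empagliflozin blocks the renal glucose carrier SGLT2, and pirfenidone is an antifibrotic drug.

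Total counts ran from 7430539 to 13017754 per library, with a median of 9951011. All 10 cardiomyocyte markers listed in the files were detected, summing to between 11900 and 107000 CPM per library. Some libraries stood apart from their labels or from each other before any comparison was made. The Y-linked gene Eif2s3y had 613 to 1321 counts in 12 libraries and 0 in 7, namely all untreated and PFD libraries and HFpEF replicates 1 and 3, although every rat is labelled male. The protocol in the labels describes groups made up of both sexes. The class I MHC gene RT1-CE16 had at most 3 counts in every library of EMPA, HFpEF and control 5w (8 in all), and 308 to 922 in the 11 of control 9w, untreated, PFD and EMPA + PFD. This split follows the group labels, so it cannot be told apart from week and treatment in comparisons across it. The atrial light chain Myl4 lay at 304.8 to 1597 CPM in 3 libraries (control 9w replicates 1 and 3, untreated replicate 2) and at most at 33.8 CPM in the other 16. Replicates were also uneven: a chi-square over genes, per gene, was 187 and 144 between control 5w replicate 1 and the other 2 of its group but 7.06 between those 2, and 176 and 144 between untreated replicate 2 and the others but 15.8 between those. Comparisons matched on both Eif2s3y and RT1-CE16 are EMPA + PFD vs control 9w and PFD vs untreated. CPM values here carry TMM scaling and are not divided by gene length, so they are compared between libraries for one gene and not between genes.

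Ddah1 fell, and Nos3, Nosip and Gch1 rose, from control 5w to control 9w. Of the 13 comparisons, the one between these 2 control groups called the most members, 7 of 9 beside 34.5% of all tested genes. HFpEF hearts differed from control 5w hearts in 3 members, beside 20.0% of genes: Ddah1 was 7.71-fold lower, Gch1 2.21-fold higher and Nosip 1.39-fold higher. At week 9 none of the 9 members differed between untreated disease hearts and controls past the threshold, beside 1.78% of genes. EMPA + PFD hearts had more Ddah1 and more Prkg1 mRNA than untreated hearts, beside 12.1% of genes called. Both calls were lost with only the compared groups or with a term for Eif2s3y. The Ddah1 call was also lost when any of 5 single libraries of the 2 groups was left out. Neither drug alone (n = 2 each) moved a member past the threshold, beside 0.0404% of genes for EMPA and 0.00807% for PFD. All calls are edgeR quasi-likelihood tests with a Benjamini-Hochberg adjusted p under 0.05 over all tested genes.

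Read against the share of all tested genes called, the counts were as follows. In control 9w vs control 5w, 7 of 9 members were called (4 higher, 3 lower) beside 34.5% of all genes, and 4 of 9 beside 14.7% with a fold of at least 2 as well. In HFpEF vs control 5w, 3 of 9 members were called beside 20.0% of genes, a share near the background. In untreated vs control 9w, 0 members were called beside 1.78% of genes, while 2 had an unadjusted p under 0.05 and DESeq2 called 0. Disease against control over both weeks called 1 member, Ddah1, beside 2.13% of genes. The difference of the disease effect between the weeks called 4 members beside 20.0% of genes. In untreated vs HFpEF, 0 members were called beside 0.226% of genes, with 1 at an unadjusted p under 0.05 and 1, Ddah2, called by DESeq2. Ddah2 was also called there without untreated replicate 2 (-1.14, adjusted p = 0.0240).

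For the drugs, EMPA vs untreated called 0 members beside 0.0404% of genes, with 1 at an unadjusted p under 0.05 and 0 called by DESeq2. PFD vs untreated called 0 beside 0.00807% of genes, with 0 at an unadjusted p under 0.05 and 0 by DESeq2. EMPA + PFD vs untreated called 2 of 9 beside 12.1% of genes, 1 of them when any of control 5w replicates 2 and 3, HFpEF replicate 3, control 9w replicate 1 or either PFD library was left out of the joint fit. Calls lost without a library of the compared groups are given with each gene. EMPA + PFD vs EMPA called 1, Ddah2, beside 9.71% of genes, and also Prkg1 (1.37, adjusted p = 0.0214) without EMPA + PFD replicate 1. EMPA + PFD vs PFD called 0 members beside 0% of genes, with 1 at an unadjusted p under 0.05 and 1, Prkg1, by DESeq2. The interaction of EMPA and PFD, which is the part of the combined change that the single-drug changes do not add up to, called 0 beside 0.00807% of genes, with 1 at an unadjusted p under 0.05 and 0 by DESeq2. EMPA + PFD vs control 9w called 5 of 9 beside 33.8% of genes, and 3 of 9 beside 12.1% with a fold of at least 2 as well. Several comparisons share control 5w, control 9w or untreated libraries, so their values are not independent of each other.

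**Figure D1:**
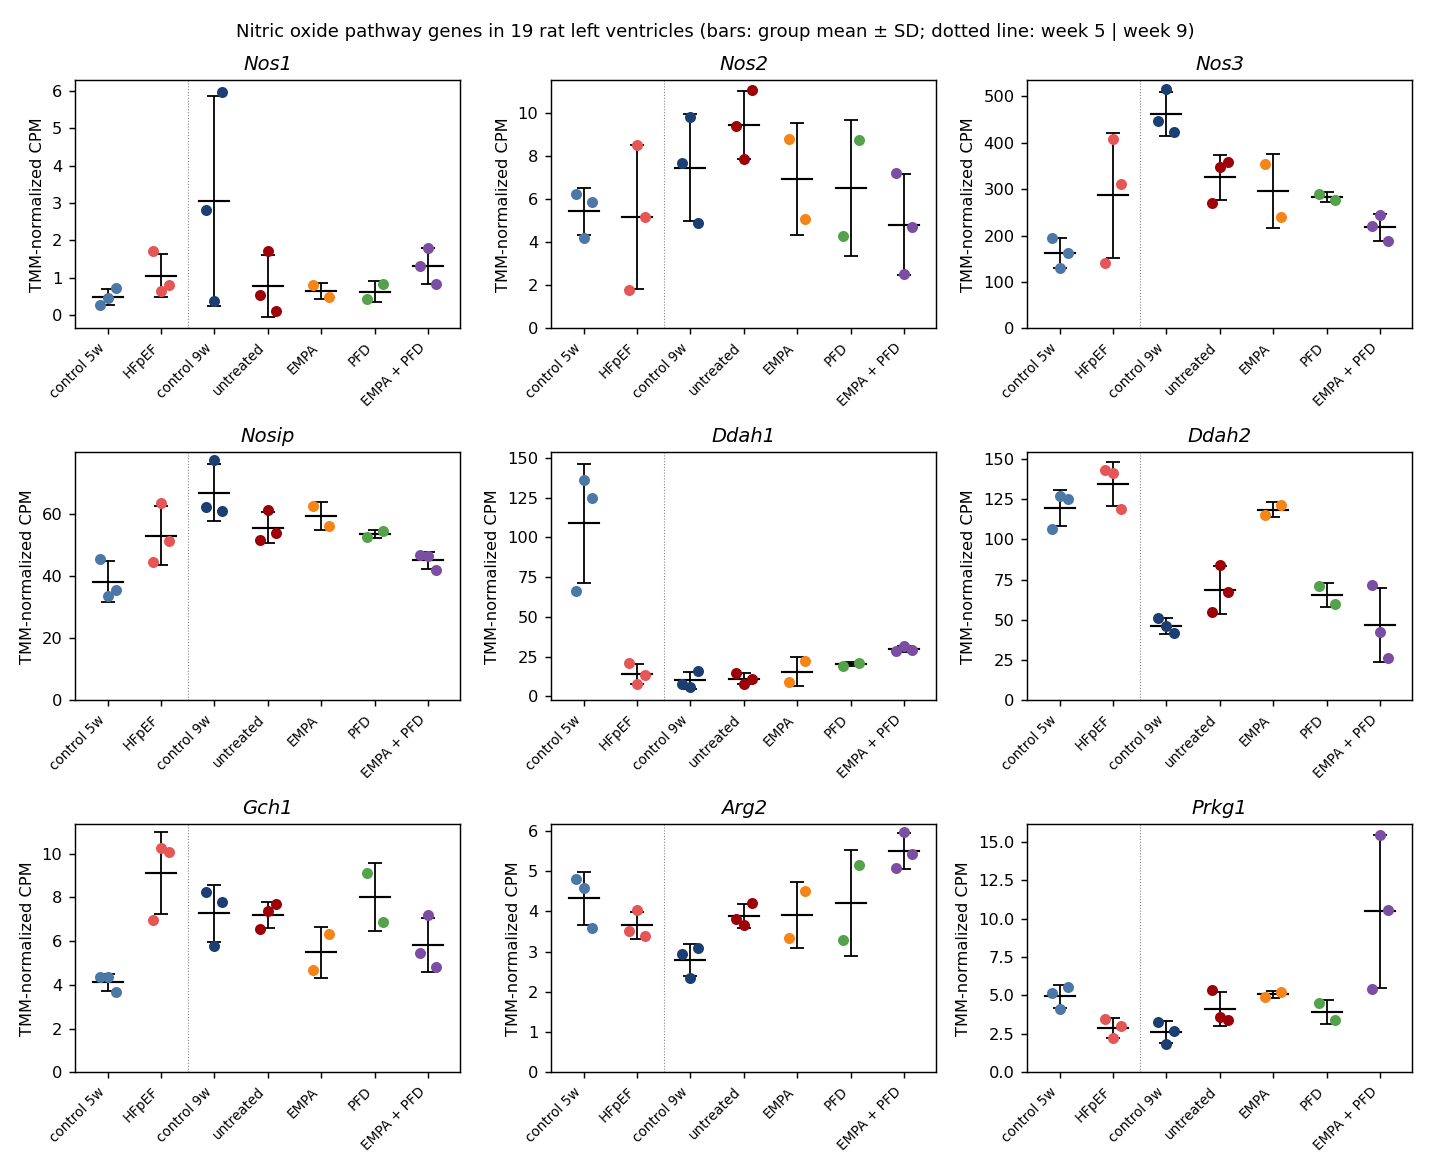
TMM-normalized CPM (linear axes) of the 9 genes in each of the 19 libraries by group, 1 panel per gene, with the group mean and SD as black bars and a dotted line between week 5 and week 9. The 3 control 5w libraries hold the highest Ddah1 values, 65.95 to 135.9 CPM, and the 3 control 9w libraries the highest Nos3 values, 423 to 515.4 CPM.

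Promoter sequences are shown for Nos3, Gch1 and Ddah1, which were called between the controls in opposite directions, and for Prkg1, which was called under the combined drugs. Nos1, whose call rests on few counts, is left out. Each is the stretch of 250 bases before the RefSeq transcript start in the GRCr8 build, written 5′ to 3′ along the gene, while the counts were made on rn6. The windows are chr4:11706582-11706831, minus strand for Nos3, chr15:22917413-22917662, minus strand for Gch1, chr2:237327562-237327811, plus strand for Ddah1 and chr1:239052185-239052434, minus strand for Prkg1. Capitals mark the GC box GGGCGG, the core that Sp1-family factors are known to bind, which was searched on both strands (the other strand reads CCGCCC).
Nos3: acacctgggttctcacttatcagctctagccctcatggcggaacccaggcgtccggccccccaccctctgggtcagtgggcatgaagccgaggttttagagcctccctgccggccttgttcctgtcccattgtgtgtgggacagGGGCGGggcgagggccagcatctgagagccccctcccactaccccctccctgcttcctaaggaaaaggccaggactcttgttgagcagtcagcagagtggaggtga
Gch1: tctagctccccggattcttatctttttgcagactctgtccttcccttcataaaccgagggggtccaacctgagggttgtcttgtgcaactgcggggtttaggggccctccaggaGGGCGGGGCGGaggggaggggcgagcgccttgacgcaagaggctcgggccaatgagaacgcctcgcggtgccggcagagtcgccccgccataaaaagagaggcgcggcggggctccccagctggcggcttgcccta
Ddah1: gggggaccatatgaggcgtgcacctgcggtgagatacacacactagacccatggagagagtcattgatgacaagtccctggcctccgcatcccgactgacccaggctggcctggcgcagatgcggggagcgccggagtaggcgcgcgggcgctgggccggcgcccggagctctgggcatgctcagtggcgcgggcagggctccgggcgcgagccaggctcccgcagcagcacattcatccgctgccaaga
Prkg1: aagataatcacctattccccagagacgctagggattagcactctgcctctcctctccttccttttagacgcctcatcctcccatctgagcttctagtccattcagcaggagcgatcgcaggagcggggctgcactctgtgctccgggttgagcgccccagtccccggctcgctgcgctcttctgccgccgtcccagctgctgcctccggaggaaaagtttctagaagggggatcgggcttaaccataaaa
The Nos3 window holds 1 GC box and the Gch1 window 2 that overlap each other by a base, whereas the Ddah1 and Prkg1 windows hold 0. Of 27457 rat promoter windows of this length, 32.4% hold at least 1. The GC content was 62.4% in the Nos3 window, 64.4% in Gch1, 68.8% in Ddah1 and 58.0% in Prkg1, against a median of 52.0% over all windows. Of the 9 members, 5 had an entry in the promoter table.

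Among the synthases, Nos3 rose from week 5 to week 9 in the controls. The control 5w libraries held 194.4, 129.3 and 163.1 CPM of Nos3 and the control 9w libraries 447.3, 515.4 and 423 CPM. The groups did not overlap, and the rise was 1.51 ± 0.29 on the log2 scale (SE, n = 3 and 3, adjusted p = 0.00186), a 2.85-fold difference. The HFpEF libraries were spread widely, at 141, 408.5 and 310.9 CPM, with replicate 1 inside the control 5w range and the other 2 above it. HFpEF vs control 5w gave 0.82 ± 0.29 (adjusted p = 0.0569), and the call depended on the setting. Nos3 was called there with DESeq2 (adjusted p = 0.0286), with upper quartile scaling or at least 10 counts in every library (adjusted p = 0.0461 in both), with the Eif2s3y term (1.33, adjusted p = 0.0263), without the HFpEF libraries that lack Eif2s3y (1.33, adjusted p = 0.00948) and without HFpEF replicate 1 (1.15, adjusted p = 0.00487). The untreated libraries held 269.9, 347.4 and 358.6 CPM, all below the control 9w range, at -0.51 ± 0.29 (adjusted p = 0.376, 95% interval -1.12 to 0.11).

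Treated hearts had intermediate Nos3 levels, 353.3 and 240 CPM under EMPA, 290.6 and 276 CPM under PFD, and 220.7, 244.2 and 187.7 CPM under EMPA + PFD. The combined group lay below both the PFD and the untreated libraries without overlap, yet the change from untreated was -0.58 ± 0.29 (adjusted p = 0.174). Against control 9w, Nos3 was 2.12-fold lower under EMPA + PFD (-1.09 ± 0.29, n = 3 and 3, adjusted p = 0.0112). In order of mean level the groups ran control 9w, untreated, EMPA, HFpEF, PFD, EMPA + PFD and control 5w, and 4 of the 6 neighbouring pairs overlapped, all but control 9w with untreated and PFD with EMPA + PFD.

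Endothelial markers moved with Nos3. The sum of 11 markers (Pecam1, Cdh5, Vwf, Kdr, Tie1, Tek, Egfl7, Emcn, Cldn5, Eng and Flt1), none of them at 0, was 2230 to 2660 CPM in control 5w, 2690 to 5230 in HFpEF, 5180 to 6070 in control 9w, 4450 to 5300 in untreated and 2770 to 3160 in EMPA + PFD. Of these 11 genes, 10 were called higher in control 9w than in control 5w and 9 lower in EMPA + PFD than in control 9w. Per 100 CPM of the marker sum, Nos3 lay between 5.24 and 8.83 CPM in every library, a 1.68-fold spread beside 3.99-fold for Nos3 itself. This ratio was 7.63 to 8.49 in control 9w, above control 5w (5.80 to 7.31) and untreated (6.07 to 7.42) without overlap. It overlapped control 9w in HFpEF (5.24 to 7.81), EMPA (7.07 to 8.09), PFD (7.04 to 7.92) and EMPA + PFD (6.73 to 8.83). With a term for the mean endothelial marker level in the model, an alternative added after the data were seen, Nos3 in control 9w vs control 5w turned to -0.24 (adjusted p = 0.663) and in EMPA + PFD vs control 9w to 0.26 (adjusted p = 0.419). The marker sums of control 5w lie below those of HFpEF and control 9w without overlap, and those of EMPA + PFD below those of untreated and control 9w. In these comparisons the term is tied to group. Calls lost or gained under it, here and for the other genes, therefore do not show what part marker level plays. In whole ventricle, more cells of a type and more RNA per cell of that type cannot be told apart. Nos3 overlaps Atg9b in the RefSeq gene table, and since the strand setting of the counting is not given, reads of the pair cannot be told apart.

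**Figure D2:**
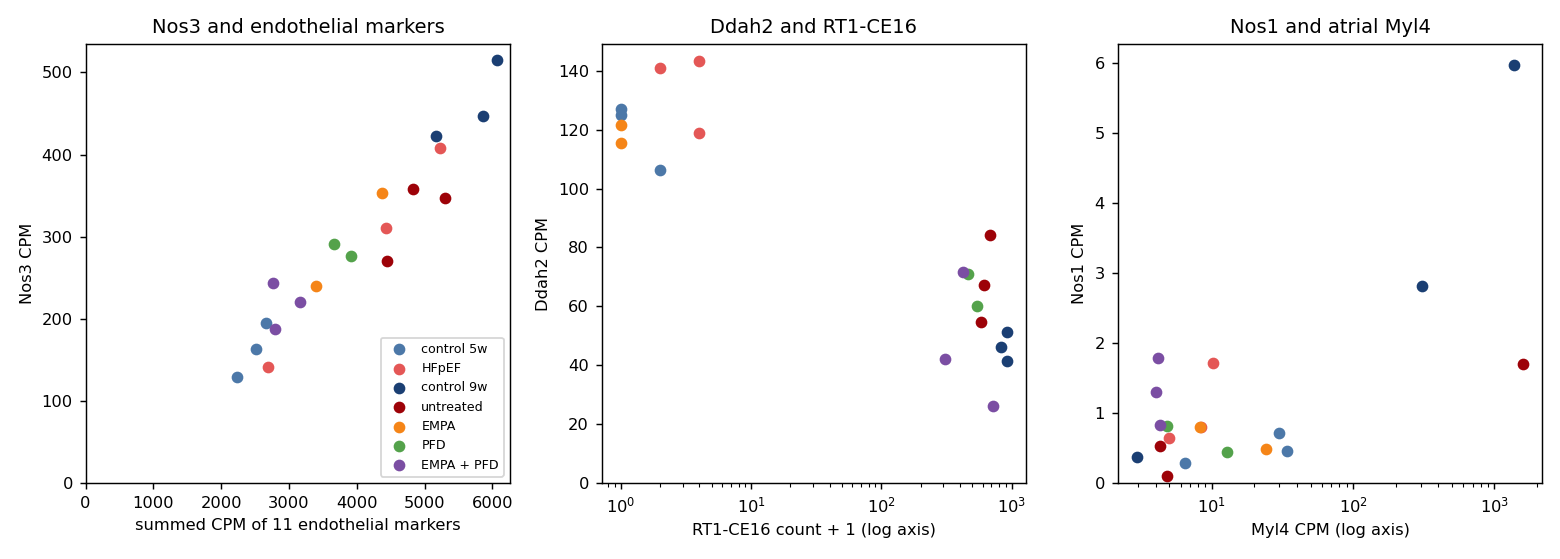
Left, Nos3 CPM against the summed CPM of 11 endothelial markers. Middle, Ddah2 CPM against the RT1-CE16 count plus 1 on a log axis. Right, Nos1 CPM against Myl4 CPM on a log axis. Each point is 1 of the 19 libraries, coloured by group. Nos3 follows the marker sum over all groups, Ddah2 falls into 8 libraries at 106.3 CPM or more and 11 at 84.19 or less, and the highest Nos1 value, 5.98 CPM, is in a library with 1381 CPM of Myl4.

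Nosip, a ubiquitin ligase that binds Nos3 and affects its place in the cell, took a similar course over a narrower range. Control 5w libraries held 45.6, 33.4 and 35.6 CPM of Nosip and control 9w libraries 62.0, 77.5 and 60.9 CPM, with no overlap (log2 change 0.81 ± 0.15, adjusted p = 0.00127). HFpEF libraries held 44.4, 63.5 and 51.2 CPM, so replicate 1 lay inside the control 5w range, and the rise was 0.47 ± 0.15 (adjusted p = 0.0349). That call was lost without control 5w replicate 2 (0.39, adjusted p = 0.116) or 3 (0.42, adjusted p = 0.107), and without HFpEF replicate 2 (0.32, adjusted p = 0.148) or 3 (0.50, adjusted p = 0.0551). Under EMPA + PFD the values were 46.8, 46.3 and 42.0 CPM, below every control 9w library, a log2 change of -0.57 ± 0.15 (adjusted p = 0.00934). Without control 9w replicate 2 this became -0.45 with an adjusted p of 0.0519. With the endothelial term the week difference of Nosip was 0.11 (adjusted p = 0.806), that of HFpEF 0.06 (adjusted p = 0.792) and that of EMPA + PFD vs control 9w -0.04 (adjusted p = 0.877). Nosip overlaps Prrg2 in the RefSeq table.

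Nos1 was sparse, with 1 to 60 counts per library. The control 5w libraries had 3, 6 and 9 counts of Nos1 (0.28 to 0.72 CPM) and the control 9w libraries 25, 3 and 60 counts (2.82, 0.37 and 5.98 CPM). The groups overlapped, with 1 control 9w library at the control 5w level and 2 above it, and the fit gave a rise of 2.62 ± 0.84 on the log2 scale (adjusted p = 0.0264). Those 2 libraries are among the 3 with more than 100 CPM of atrial Myl4, and without the 3 the change turned to -0.41 (adjusted p = 0.795). That fit leaves control 9w with replicate 2 alone, the library with 3 counts of Nos1, and takes its spread from the other groups. The call was also lost without each of control 5w replicates 1, 2 and 3 and control 9w replicates 1 and 3, with changes of 1.68 to 2.99 and adjusted p from 0.0502 to 0.152. Among libraries with little Myl4, the highest Nos1 value was 1.79 CPM (15 counts), in EMPA + PFD replicate 2, and HFpEF replicate 1 had the most counts, 24. None of the disease or drug comparisons called Nos1 in the reported fit, and untreated vs control 9w gave -1.91 ± 0.80 (adjusted p = 0.221). The difference of the disease effect between weeks was -3.01 ± 1.18 (adjusted p = 0.0821). It was called without control 9w replicate 2 (-3.53, adjusted p = 0.0371) or untreated replicate 2 (-4.34, adjusted p = 0.0182).

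Nos2, the inducible synthase, was called in none of the 13 comparisons. It had 21 to 105 counts per library. Group means were 5.43 ± 1.09 CPM in control 5w, 5.17 ± 3.37 in HFpEF, 7.46 ± 2.48 in control 9w and 9.44 ± 1.60 in untreated (SD, n = 3 each), and every pair of neighbours in the order of group means overlapped. The HFpEF libraries ranged from 1.79 to 8.53 CPM of Nos2, so the interval of HFpEF vs control 5w was wide, -1.11 to 0.95 on the log2 scale (adjusted p = 0.921). EMPA + PFD had the lowest mean, 4.81 ± 2.35 CPM, at -0.97 ± 0.49 from untreated (adjusted p = 0.179). With the endothelial term added after the data were seen, Nos2 was called lower in HFpEF vs control 5w (-1.98, adjusted p = 0.0118) and in control 9w vs control 5w (-2.42, adjusted p = 0.0427). In the difference of the disease effect between weeks it was 2.89 (adjusted p = 0.0108). Without the term these changes were -0.08 (adjusted p = 0.921), 0.46 (adjusted p = 0.486) and 0.42 (adjusted p = 0.693). The marker sums of control 5w do not overlap those of HFpEF or control 9w. The term is tied to group there, so these 3 calls are not read as changes of Nos2.

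Gch1, which makes the first intermediate of tetrahydrobiopterin, rose in HFpEF. The 3 control 5w libraries held 4.33, 4.35 and 3.66 CPM of Gch1 (46 to 56 counts) and the 3 HFpEF libraries 6.96, 10.3 and 10.1 CPM (97 to 113 counts). The groups were apart, and Gch1 was 2.21-fold higher in HFpEF (log2 change 1.14 ± 0.22, adjusted p = 0.00495). The call held when any 1 library of the 2 groups was left out, and without the HFpEF libraries that lack Eif2s3y the change was 1.32 (adjusted p = 0.0151). With the endothelial term it was 0.93 (adjusted p = 0.0671). Control 9w libraries, at 8.23, 5.78 and 7.78 CPM, were also all above control 5w (0.82 ± 0.22, adjusted p = 0.0121), a call lost without control 5w replicate 3 (0.74, adjusted p = 0.0503) or control 9w replicate 1 (0.72, adjusted p = 0.0508), or with the endothelial term (0.48, adjusted p = 0.586). Untreated libraries, at 6.54 to 7.69 CPM, lay inside the control 9w range, with a difference of -0.01 ± 0.22 (adjusted p = 0.985, 95% interval -0.48 to 0.46). Under EMPA the 2 libraries held 4.66 and 6.32 CPM, under PFD 9.09 and 6.89 CPM, and under EMPA + PFD 5.44, 7.17 and 4.81 CPM, and no drug comparison called Gch1.

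Ddah1, the enzyme that clears ADMA, showed the widest fold among the called members. The control 5w libraries held 65.95, 135.9 and 124.5 CPM (700, 1752 and 1564 counts), and every one of the other 16 libraries held 31.7 CPM or less. HFpEF libraries had 20.7, 7.79 and 13.6 CPM (85 to 289 counts), a log2 change of -2.95 ± 0.44 from control 5w (n = 3 and 3, adjusted p = 0.00104). Control 9w libraries had 8.01, 5.90 and 16.1 CPM, a log2 change of -3.43 ± 0.45 (adjusted p = 0.000194), or 10.8-fold lower. Both calls held when any 1 library of the groups compared was left out. Since the week 5 controls alone were high, the fall in HFpEF is a difference from that group: HFpEF libraries overlapped those of control 9w, and untreated libraries, at 14.8, 7.63 and 10.9 CPM, overlapped control 9w too (0.13 ± 0.44, adjusted p = 0.905, 95% interval -0.80 to 1.07).

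Over both weeks together, disease against control gave -1.41 ± 0.30 for Ddah1 (adjusted p = 0.0312), the mean of -2.95 at week 5 and 0.13 at week 9. It was past the threshold in 4 of 12 fits with 1 library left out, and was lost without control 5w replicates 2 and 3, HFpEF replicates 2 and 3, control 9w replicates 1 and 3 or untreated replicates 2 and 3, with values of -1.14 to -1.48 and adjusted p from 0.0521 to 0.0919. Within control 5w, replicate 1 had the lowest Ddah1 level and also the lowest sum of 7 fibroblast markers, 4460 CPM, where the group reached 40900 CPM. The HFpEF sums were 9500 to 16000 CPM and those of control 9w 3040 to 4480. They were 3660 to 8140 CPM in untreated, 3610 to 7360 in EMPA and 3840 to 4290 in PFD. In EMPA + PFD, the group with the next highest Ddah1 level, they were 2010 to 4640 CPM, below those of HFpEF. The part of these cells in the Ddah1 values was not tested. With the endothelial term, the Ddah1 change was -1.30 in control 9w vs control 5w (adjusted p = 0.256), in HFpEF vs control 5w -1.75 (adjusted p = 0.0236) and over both weeks -0.98 (adjusted p = 0.0341).

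The combined treatment was the group with the next highest Ddah1 level. EMPA + PFD libraries held 28.6, 31.7 and 28.8 CPM (242 to 276 counts), above each library of PFD (19.2 and 21.1 CPM), EMPA (8.92 and 22.1 CPM), untreated, HFpEF and control 9w. Ddah1 was 2.69-fold higher than in untreated hearts (log2 change 1.43 ± 0.43, adjusted p = 0.0442) and 2.95-fold higher than in control 9w (1.56 ± 0.43, adjusted p = 0.0135). The first call was lost without untreated replicate 2 (1.21, adjusted p = 0.179) or 3 (1.43, adjusted p = 0.0925), and without EMPA + PFD replicate 1 (1.48, adjusted p = 0.0518), 2 (1.39, adjusted p = 0.133) or 3 (1.47, adjusted p = 0.0920). The second was lost without control 9w replicate 1 (1.42, adjusted p = 0.0556) or 2 (1.30, adjusted p = 0.0634). EMPA alone gave 0.50 ± 0.48 (95% interval -0.53 to 1.52) and PFD alone 0.87 ± 0.47 (95% interval -0.13 to 1.87) against untreated. The interaction was 0.07 ± 0.67 (adjusted p = 0.990). With the endothelial term, EMPA + PFD vs untreated was 0.22 (adjusted p = 0.724) and EMPA + PFD vs control 9w 0.01 (adjusted p = 0.989). The untreated libraries have no Eif2s3y counts and the EMPA + PFD libraries do, and with a term for Eif2s3y the change was 2.57 with an adjusted p of 0.0680.

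**Figure D3:**
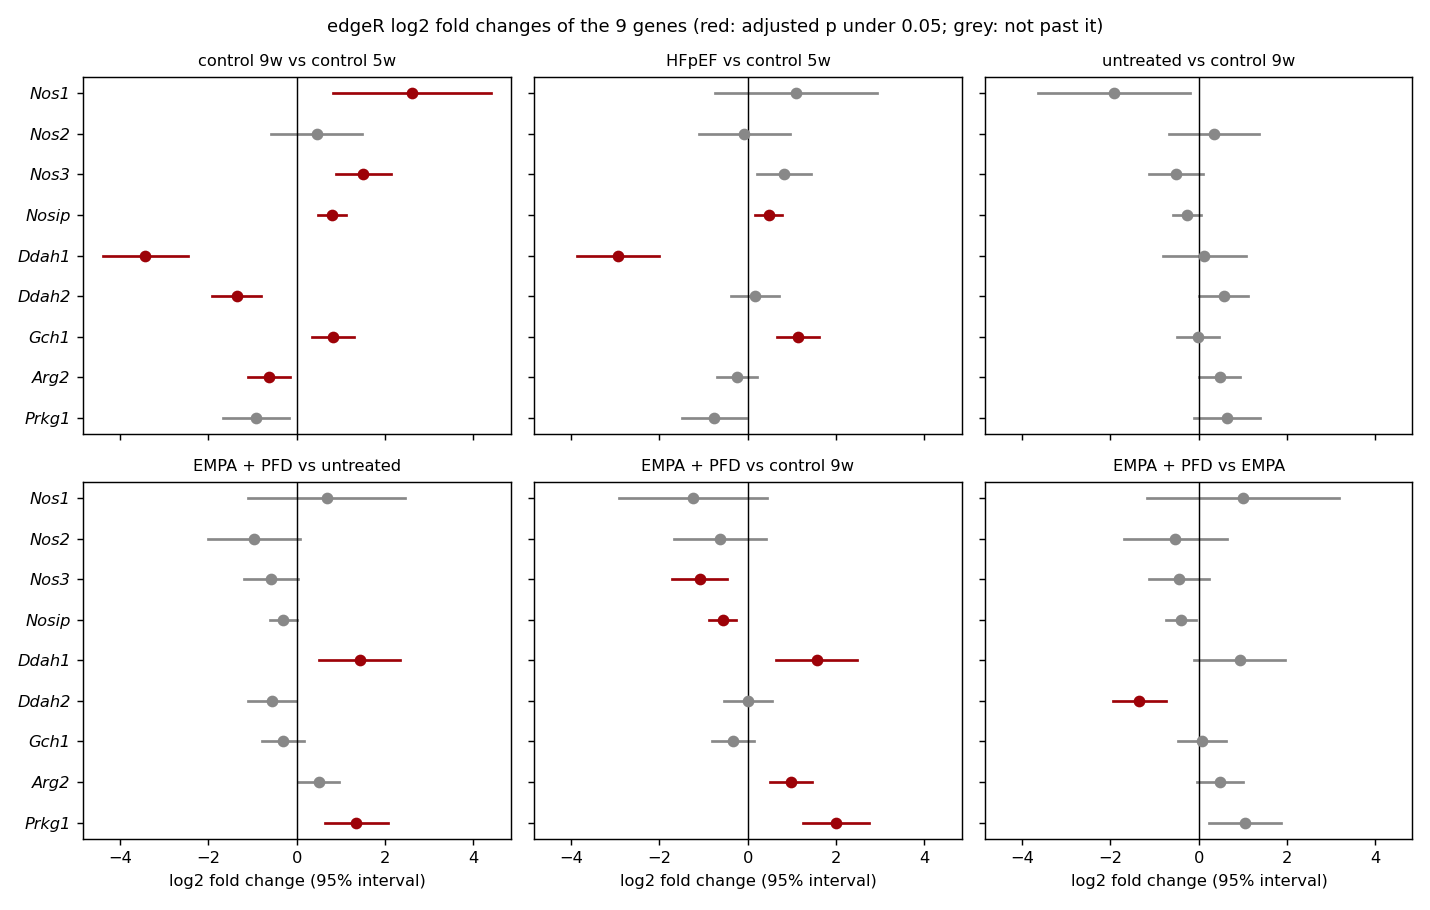
edgeR log2 fold changes of the 9 genes with 95% intervals in 6 comparisons, red where the adjusted p is under 0.05 and grey where it is not. Ddah1 lies at -3.43 and -2.95 in the 2 comparisons with control 5w and at 1.43 and 1.56 in EMPA + PFD against untreated and control 9w, while none of the 9 points is red in untreated vs control 9w.

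Ddah2, the paralog of Ddah1, followed another pattern. It lay at 106.3 to 127 CPM in control 5w, 118.8 to 143.2 in HFpEF and 115.3 and 121.6 in EMPA, and at 41.5 to 51.3 in control 9w, 54.6 to 84.2 in untreated, 60.0 and 70.9 in PFD and 26.1 to 71.7 in EMPA + PFD. The first 3 groups and the other 4 did not overlap. Both calls of Ddah2 cross this divide: control 9w was lower than control 5w by -1.36 ± 0.26 on the log2 scale (adjusted p = 0.00174), and EMPA + PFD lower than EMPA by -1.34 ± 0.28 (adjusted p = 0.0177). The second was lost without EMPA replicate 1 (-1.38, adjusted p = 0.0715) or 2 (-1.30, adjusted p = 0.123) and without EMPA + PFD replicate 2 (-1.26, adjusted p = 0.0704). Within the divide, HFpEF vs control 5w gave 0.17 ± 0.26 (95% interval -0.37 to 0.71) and EMPA + PFD vs control 9w 0.01 ± 0.26 (95% interval -0.55 to 0.56). Also within it, untreated vs control 9w gave 0.57 ± 0.26 (adjusted p = 0.261) and EMPA + PFD vs untreated -0.56 ± 0.26 (adjusted p = 0.148), the latter called without EMPA + PFD replicate 1 (-0.99, adjusted p = 0.0106). The week difference was -1.69 (adjusted p = 0.0977) with the endothelial term, and EMPA + PFD vs EMPA stayed called at -1.26 (adjusted p = 0.0311).

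The same 8 and 11 libraries are those without and with RT1-CE16. Ddah2 lies on chromosome 20 in the RefSeq table, inside the MHC that also holds RT1-CE16. Of the 12388 tested genes, 22 (0.178%) kept these 8 and 11 libraries apart without overlap, and 7 of the 374 tested genes of chromosome 20 did so: Ddah2, Vps52 and 5 genes named RT1. Of the 10 nearest tested genes on each side of Ddah2, 0 did. Ddah2 was the only member of the 9 that did. For Ddah2, the RT1-CE16 divide, week and treatment cannot be told apart.

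Arg2, the mitochondrial arginase that takes arginine to ornithine, was low in counts (19 to 59 per library) and narrow in range. Control 5w libraries held 4.80, 4.58 and 3.58 CPM and control 9w libraries 2.93, 2.34 and 3.09 CPM, without overlap (-0.63 ± 0.22, adjusted p = 0.0398). The call was lost without control 5w replicate 1 (-0.54, adjusted p = 0.108) or 2 (-0.58, adjusted p = 0.106) and without control 9w replicate 1 (-0.66, adjusted p = 0.0796), 2 (-0.52, adjusted p = 0.147) or 3 (-0.71, adjusted p = 0.0502). Under the other settings listed in the methods it was kept in 4 and lost in 5, among them DESeq2 (adjusted p = 0.0502). With the endothelial term the change was -0.59 (adjusted p = 0.490), so the value barely moved while the call was lost. EMPA + PFD libraries, at 5.09, 5.98 and 5.43 CPM, were above every control 9w library, 1.96-fold (0.97 ± 0.22, adjusted p = 0.00501), and that call held when any 1 library of the 2 groups was left out but not with the endothelial term (0.95, adjusted p = 0.0904). They were also above every untreated library (3.65 to 4.21 CPM), at 0.50 ± 0.22 (adjusted p = 0.126). Arg2 overlaps Vti1b in the RefSeq table.

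Prkg1, the type I cGMP-dependent kinase, had its highest values under the combined drugs. EMPA + PFD libraries held 5.44, 15.4 and 10.6 CPM (46, 129 and 101 counts), with replicate 1 near the level of other groups and the other 2 above every other library. Untreated libraries held 5.38, 3.57 and 3.37 CPM, EMPA libraries 4.93 and 5.22, PFD libraries 4.49 and 3.40, and control 9w libraries 3.27, 1.85 and 2.69 CPM. Prkg1 was 2.55-fold higher under EMPA + PFD than in untreated hearts (log2 change 1.35 ± 0.34, adjusted p = 0.0248) and 4.00-fold higher than in control 9w (2.00 ± 0.35, adjusted p = 0.00132). The first call was lost without untreated replicate 2 (1.26, adjusted p = 0.104) or 3 (1.25, adjusted p = 0.0703) and without EMPA + PFD replicate 2 (0.98, adjusted p = 0.127) or 3 (1.37, adjusted p = 0.0665). The second held when any 1 library of the 2 groups was left out. With the endothelial term these were 0.76 (adjusted p = 0.270) and 1.23 (adjusted p = 0.130). With a term for Eif2s3y, which untreated libraries lack, the first was 1.91 (adjusted p = 0.0938).

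EMPA alone gave 0.31 ± 0.38 for Prkg1 (95% interval -0.50 to 1.11) and PFD alone -0.06 ± 0.38 (95% interval -0.87 to 0.76) against untreated, and EMPA + PFD vs PFD gave 1.41 ± 0.39 (adjusted p = 0.245). The interaction was 1.10 ± 0.54 with an adjusted p of 0.563. At week 5 and between the controls, Prkg1 was lower in HFpEF than in control 5w by -0.77 ± 0.34 (adjusted p = 0.118) and lower in control 9w than in control 5w by -0.92 ± 0.35 (adjusted p = 0.0515), neither past the threshold in the reported fit. The second was called with upper quartile scaling (adjusted p = 0.0466), at least 10 counts in every library (0.0490) and DESeq2 (0.0433). The difference of the disease effect between weeks was 1.42 ± 0.49 (adjusted p = 0.0523). It was called with at least 10 counts in every library (0.0493), DESeq2 (0.0346) and only the compared groups (0.0471). Both were also called without some single libraries. The summed markers of smooth muscle and pericytes, which express Prkg1, were 845 to 1000 CPM under EMPA + PFD and 1290 to 1550 in untreated, and the summed cardiomyocyte markers 72700 to 107000 and 20100 to 72800 CPM. Their part in the Prkg1 values was not tested. Prkg1 overlaps Cstf2t and 4 non-coding genes in the RefSeq table.

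The disease effect differed between the weeks for 4 of 9 members, beside 20.0% of all tested genes. Defined as untreated minus control 9w minus the HFpEF to control 5w difference, it was 3.08 ± 0.61 for Ddah1 (adjusted p = 0.0049), -1.16 ± 0.31 for Gch1 (adjusted p = 0.0196), -1.33 ± 0.41 for Nos3 (adjusted p = 0.0336) and -0.74 ± 0.21 for Nosip (adjusted p = 0.0224). The Ddah1 call held when any 1 library of the 4 groups was left out. The Gch1 call was lost without control 9w replicate 1 (-1.06, adjusted p = 0.0530) or untreated replicate 1 (-1.09, adjusted p = 0.0545). The Nos3 call was lost without any of control 5w replicates 2 and 3, HFpEF replicates 2 and 3, control 9w replicates 1 and 2 and untreated replicates 1 and 3 (-0.98 to -1.41, adjusted p from 0.0539 to 0.0897). The Nosip call was lost without any of control 5w replicates 2 and 3, HFpEF replicate 2, control 9w replicate 2 and untreated replicates 1 and 3 (-0.59 to -0.72, adjusted p from 0.0520 to 0.0633). Under the other settings listed in the methods, the Nos3 call was kept in 6 and lost in 3. The Nosip call was kept in 7 and lost in 2. Both were lost with the Eif2s3y term and with only the compared groups, where Ddah1 and Gch1 stayed called. These differences include the movement between the 2 control groups, and with the endothelial term none of the 4 was called: Nos3 turned to 0.13 (adjusted p = 0.776), and Ddah1 was 1.54 (adjusted p = 0.0976), Gch1 -0.88 (adjusted p = 0.175) and Nosip -0.20 (adjusted p = 0.504).

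A wider list of 59 genes of nitric oxide and cGMP signalling, of which 55 were tested (Gucy1b2, Nppc, Agxt2 and Prkg2 were not), was counted in the same comparisons. In HFpEF vs control 5w, 7 were higher and 4 lower, 20.0% of the list beside 20.0% of all genes, with a list median of -0.06 beside 0.02. In control 9w vs control 5w, 11 were higher and 11 lower, 40.0% beside 34.5%, with a median of 0.06 beside -0.04. In EMPA + PFD vs untreated, 3 were higher and 4 lower, 12.7% beside 12.1% (median -0.14 beside -0.03), and in EMPA + PFD vs control 9w, 9 were higher and 10 lower, 34.5% beside 33.8% (median -0.14 beside -0.08). These shares lie near those of all genes. The difference of the disease effect between weeks called 12, 6 in each direction (21.8% beside 20.0%), EMPA + PFD vs EMPA 8, 4 in each direction (14.5% beside 9.71%), and disease over both weeks 1, Mrvi1 (1.8% beside 2.13%). Untreated vs control 9w, untreated vs HFpEF, EMPA vs untreated, PFD vs untreated, the interaction and EMPA + PFD vs PFD called 0, with 6, 10, 5, 1, 8 and 10 genes at an unadjusted p under 0.05 in that order.

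By step, the 3 tested subunits of soluble guanylate cyclase, the receptor of nitric oxide, were called in none of the comparisons. For the other steps, the genes named are a part of those called. In control 9w vs control 5w, 2 of 8 phosphodiesterases were higher and 3 lower, and 2 of 13 synthase partners higher and 4 lower. There, 2 of 8 kinase targets were higher and 1 lower, and of 4 genes of nitric oxide removal 1 was higher and 1 lower. All genes were called at 34.5% in that comparison. In HFpEF vs control 5w, 1 of the 4 removal genes was higher, beside 20.0% of all genes. Npr1, the membrane guanylate cyclase that binds the natriuretic peptides ANP and BNP, rose in HFpEF vs control 5w (0.93 ± 0.23, adjusted p = 0.0142) and control 9w vs control 5w (1.40 ± 0.23, adjusted p = 0.000705), and fell in EMPA + PFD vs untreated (-0.91 ± 0.23, adjusted p = 0.0253). The clearance receptor Npr3 rose in control 9w vs control 5w (3.12 ± 1.00, adjusted p = 0.0263). Control 9w replicates 1 and 3 are among the libraries above 100 CPM of atrial Myl4. Of 5 atrial markers, 2 were called higher in that comparison (median 4.59). Their part in the Npr3 value was not tested.

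Of 8 phosphodiesterases that break cGMP down or respond to it, Pde3a, whose cAMP breakdown cGMP inhibits, fell in HFpEF vs control 5w (-1.45 ± 0.25, adjusted p = 0.0027) and rose in EMPA + PFD vs untreated (1.41 ± 0.25, adjusted p = 0.00854). Pde2a and Pde1c rose in HFpEF vs control 5w, by 1.00 ± 0.26 (adjusted p = 0.0169) and 1.69 ± 0.42 (adjusted p = 0.0142). Pde5a, the cGMP-specific enzyme that sildenafil inhibits, was called in EMPA + PFD vs control 9w (-0.56 ± 0.18, adjusted p = 0.0279).

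Among genes of the cofactor and substrate, Gchfr, which feeds tetrahydrobiopterin levels back onto Gch1, fell in EMPA + PFD vs untreated (-1.43 ± 0.28, adjusted p = 0.0112) and vs control 9w (-1.57 ± 0.28, adjusted p = 0.00146). Ass1, which remakes arginine from citrulline, rose in HFpEF vs control 5w (1.02 ± 0.28, adjusted p = 0.0214) and fell in EMPA + PFD vs untreated (-1.26 ± 0.29, adjusted p = 0.0189). Of 13 synthase partners, the caveolin Cav3 fell in HFpEF vs control 5w (-1.19 ± 0.31, adjusted p = 0.0180), as did dystrophin, Dmd (-1.19 ± 0.22, adjusted p = 0.00371), and the endothelial trafficking protein Nostrin rose in control 9w vs control 5w (1.28 ± 0.39, adjusted p = 0.0215). Summed cardiomyocyte markers were 11900 to 35400 CPM in HFpEF and 38200 to 92100 in control 5w, without overlap. Of 10 tested, 3 were called lower there (median -1.25) and 1 higher in EMPA + PFD vs untreated (median 0.844). Their part in the values of Cav3, Dmd and Pde3a was not tested. Of 11 endothelial markers, 6 were called higher in HFpEF vs control 5w (median 0.754) and 10 in control 9w vs control 5w (median 1.22). In EMPA + PFD vs untreated, 2 of these were called lower (median -0.739). The part of endothelial cells in the values of Npr1, Pde2a, Ass1 and Nostrin was not tested. Of the kinase targets, the calcium-activated potassium channel Kcnma1 (3.27 ± 0.97, adjusted p = 0.0293) and the calcium-release regulator Mrvi1 (1.25 ± 0.23, adjusted p = 0.0033) rose in HFpEF vs control 5w.

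**Figure D4:**
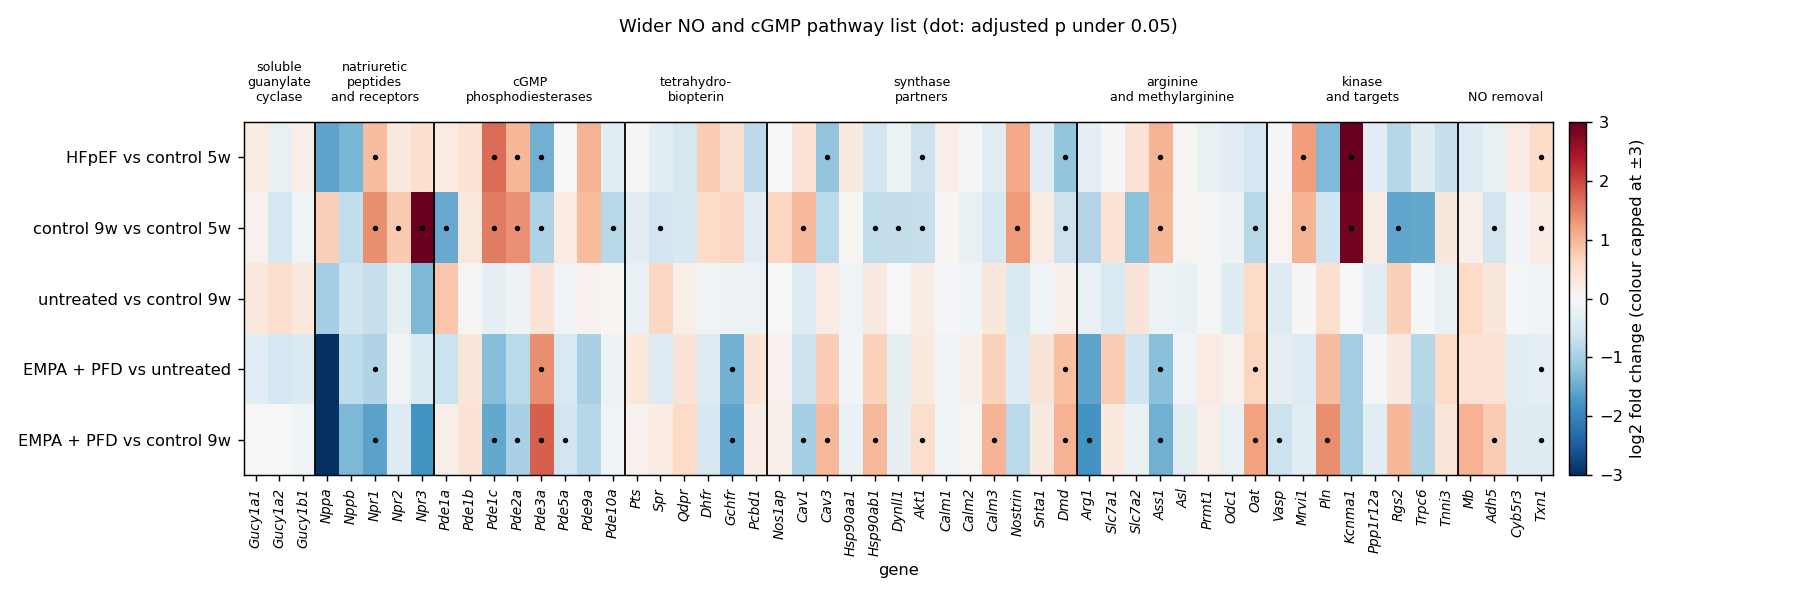
log2 fold changes of 55 genes of nitric oxide and cGMP signalling (columns, grouped by step) in 5 comparisons (rows), with colour capped at ±3 and a dot where the adjusted p is under 0.05. Row by row from the top there are 11, 22, 0, 7 and 19 dots.

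Genes with a course like that of each member over the 19 libraries were looked up as the 3 with the highest Pearson r of log2 CPM among the tested genes. For Nos3 these were Anxa3 (r = 0.970), Prkch (r = 0.970) and Rasip1 (r = 0.965), and for Nosip Ilkap (r = 0.954), Rapgef3 (r = 0.950) and Ralgapa1 (r = 0.946). For Ddah1 they were Pofut2 (r = 0.948), Man1a2 (r = 0.945) and Cab39l (r = 0.941), and for Ddah2 Tmem97 (r = 0.921), Dynll1 (r = 0.918) and Comtd1 (r = 0.916). For Prkg1 they were Cpeb4 (r = 0.905), Ucp2 (r = 0.902) and Pja2 (r = 0.899), and for Arg2 Adcy9 (r = 0.891), Flot2 (r = 0.873) and Rsrc1 (r = 0.870). For Nos2 they were Iqsec3 (r = 0.924), Pdcd1lg2 (r = 0.914) and Efnb2 (r = 0.911), for Nos1 Met (r = 0.889), Reg3g (r = 0.883) and Procr (r = 0.863), and for Gch1 Ackr3 (r = 0.804), Mpdu1 (r = 0.792) and Tfeb (r = 0.788). Among the members themselves, Nos3 and Nosip ran together (r = 0.924), Ddah1 ran against Nosip (r = -0.913) and Nos3 (r = -0.855), and Ddah2 was little related to Ddah1 (r = 0.220). These values describe the same 19 libraries, which share group, depth and cell makeup.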

How the data were processed

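RNA from the left ventricle of 19 rats was sequenced, 1 library per heart by the labels, with groups and replicate numbers taken from the labels. Per the paper's methods and the labels, the authors ran Trim Galore, mapped to rn6 by HISAT2 and deposited whole counts per gene symbol from htseq-count, without normalization. Strand setting, overlap mode, annotation and tool versions are not given in the sources used here. The study left out 1 sample each of EMPA and PFD because their files were corrupted. The table of the whole series is identical to the library files and was not used separately.

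Counts were scaled by TMM and tested with edgeR 4.0.16 (R 4.3.3) by the quasi-likelihood F test in 1 model of 7 groups, over 12388 genes kept by filterByExpr, with Benjamini-Hochberg adjustment per comparison and a threshold of 0.05. Errors of log2 changes are SE and those of CPM means SD. Low counts limit precision most for Nos1. All 9 members were named, the wider list by its counts, and the 3 genes most like each member by Pearson r of log2 CPM (prior count 2). The members and lists were chosen with earlier results of these data known. The test was checked on simulated counts. Alternatives were upper quartile and RLE scaling, no low-count filter, at least 10 counts in every library, DESeq2 1.42.0, only the compared groups, a fold of at least 2, a replicate block, a term for Eif2s3y, leaving out the HFpEF libraries without Eif2s3y, and leaving out each library. An endothelial marker term (mean log2 CPM) and leaving out the libraries above 100 CPM of Myl4 were added after seeing the data.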

Additional observations from a re-analysis of the deposited data

Results flagged for a closer look

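The change from control to disease hearts differed between week 5 and week 9 for 4 of 9 members in the edgeR test of the difference itself, beside 20.0% of all tested genes. On the log2 scale the week 9 change minus the week 5 change was 3.08 for Ddah1, -1.16 for Gch1, -1.33 for Nos3 and -0.74 for Nosip. These values rest on 2 control groups that also differ in RT1-CE16 and in the endothelial marker sum. The disease groups also differ from their controls in Eif2s3y. All untreated libraries and HFpEF replicates 1 and 3 had 0 counts of it, while every control library had counts. At week 9 this mark and disease cannot be told apart. With a term for Eif2s3y, Ddah1 and Gch1 stayed called and Nos3 and Nosip did not. Single outlying values were not tested in groups of 2 or 3 libraries.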

How the results depend on the processing

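The number of called members moved by more than 1.5 times as follows, and where not stated the cause was not tested. Disease vs control over both weeks called 1 member in the reported fit, 2 with DESeq2 and 0 with only the compared groups, the replicate block, the Eif2s3y term or without the Myl4-rich libraries. Over all genes that comparison called 264 in the reported fit and 820 with DESeq2. In the settings with 0 members it called 168, 132, 1 and 7 genes in that order, so calls were lost over all genes too. The difference of the disease effect between weeks called 4, and 2 with the Eif2s3y term, 1 with the endothelial term (Nos2, not among the 4) and 2 without the Myl4-rich libraries. Over all genes it called 2473 in the reported fit and 1896, 1117 and 2763 in these settings in that order. Control 9w vs control 5w called 7, and 4 with a fold of at least 2, 1 with the endothelial term (Nos2, not among the 7) and 4 without the Myl4-rich libraries, which leaves control 9w with replicate 2 alone and takes its spread from the other groups. Untreated vs HFpEF called 0, and 1 with DESeq2 or without the Myl4-rich libraries. EMPA + PFD vs untreated called 2, and 1 with upper quartile scaling or the replicate block and 0 with only the compared groups, the Eif2s3y term, the endothelial term or without the Myl4-rich libraries. EMPA + PFD vs EMPA called 1, and 2 with DESeq2 and 0 with only the compared groups. EMPA + PFD vs PFD called 0, and 1 with DESeq2. EMPA + PFD vs control 9w called 5, and 3 with a fold of at least 2 and 0 with the endothelial term. With 1 library left out, the counts ran from 2 to 4 in HFpEF vs control 5w, 0 to 1 over both weeks, 1 to 6 for the difference between weeks, 4 to 8 in control 9w vs control 5w, 0 to 1 in untreated vs HFpEF, 0 to 2 in EMPA + PFD vs untreated and vs EMPA, and 3 to 5 in EMPA + PFD vs control 9w, and stayed at 0 in the other 5 comparisons.

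Reversed values were Nos3 with the endothelial term in control 9w vs control 5w (-0.24), in the difference between weeks (0.13) and in EMPA + PFD vs control 9w (0.26), and Nos1 in control 9w vs control 5w without the Myl4-rich libraries (-0.41), which rests on that 1 control 9w library. Among single values of called members, 184 of 205 under the other settings listed in the methods and 112 of 167 with 1 library left out kept direction and call, and the rest kept their direction. Under the endothelial term and without the Myl4-rich libraries, 18 of 46 kept both, 24 kept only their direction and 4 reversed.

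Same-numbered libraries of different groups did not deviate together: 52 pairs had a mean r of -0.049 (-0.532 to 0.493) against 0.0223 for 102 other pairs, and 5 of 19 libraries correlated best with one of their own number, so the numbers were not taken as pairs. The replicate block gave the counts above. Depth limits Nos1, with 1 to 60 counts, and leaves groups of 2 libraries with wide intervals.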
